A study of Mus musculus with 8 samples.

Results

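Amino acid transporter genes were examined in brown adipose tissue that lacked Prdm16 and in wild-type brown adipose tissue. They were defined by name, as every gene on the array whose name begins with Slc1a, Slc3a, Slc6a, Slc7a, Slc38a or Slc43a. The set was chosen with earlier results of these data known. The array held 58 such genes on 70 of its 39429 non-control probes, and 38 of them were bright enough to be tested among 21742 genes in all. The name rule also takes in 2 genes that are not amino acid carriers: Slc7a6os, which lies on the opposite strand of Slc7a6 and encodes no transporter, and Slc43a3, known as a purine nucleobase carrier.

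Each of the 8 Agilent 2-colour arrays carried RNA of 1 Prdm16 knockout and 1 wild-type brown fat sample of the same age. There were 4 arrays of 11-month-old mice and 4 of 6-week-old mice, and on 2 arrays of each age the dyes were exchanged. The labels call the samples biological replicates and give the genotypes as Prdm16 KO and WT, without the allele, the Cre driver, the strain or the sex. Prdm16 is the transcriptional co-regulator that keeps brown fat cells on their lineage. Its own probe read a log2 ratio of knockout over wild type of -0.50 (limma adjusted p = 0.0372) at 11 months and -0.58 (adjusted p = 0.0420) at 6 weeks, a partial loss of signal in whole tissue. All 7 brown adipocyte markers were well above background in each of the 16 channel measurements (8 arrays with 2 channels each), so the labelled tissue bears its defining genes. All 7 were lower in the knockout at 11 months and none was called at 6 weeks, with Ucp1, the uncoupling protein of brown fat, at -4.05 (adjusted p = 0.000419) and 0.13 (adjusted p = 0.864). In each channel, 61.2% to 68.2% of the 43020 non-control spots were well above background, and saturation was seen in 0 spots. Skeletal muscle markers differed widely between arrays: the median log2 ratio of 10 such genes was -0.36, -1.16, -0.30 and 1.72 in 11-month-old arrays 1 to 4 and 0.03, -2.86, 2.94 and -3.45 in 6-week-old arrays 1 to 4.

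Amino acid transporters move amino acids and their relatives across cell membranes, and the families differ in how they do it. Slc1 carriers take up glutamate and aspartate or exchange small neutral amino acids, and Slc6 carriers use the sodium gradient to take up neutral amino acids, neurotransmitters, creatine and taurine. Slc7 light chains exchange one amino acid for another, most of them only when joined to the heavy chain encoded by Slc3a2. Slc38 carriers bring glutamine and alanine into the cell or out of the lysosome, and Slc43 carriers let large neutral amino acids pass down their gradient. In brown fat, branched-chain amino acids and glutamate feed mitochondrial oxidation, and creatine is used in a cycle that releases heat. Slc7a10 is known as a surface marker of white adipocytes.

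At 11 months, 11 of the 38 tested transporter genes were higher in the knockout and 8 were lower, and 19 were not called. A gene was called where its adjusted p in limma, with Benjamini-Hochberg adjustment over all 21742 genes, was below 0.05. Over all genes tested, 34.7% were called at this age, with 17.9% of all genes higher and 16.8% lower. The members' share, 19 of 38, was above that of all genes, a gap that was not tested, and their median log2 ratio was 0.04, against 0.01 for all genes. The genes called higher were Slc6a13, Slc7a10, Slc43a1, Slc1a5, Slc1a3, Slc6a12, Slc7a1, Slc43a3, Slc38a6, Slc7a7 and Slc6a16, in falling order of the fitted ratio. Those called lower were Slc6a8, Slc43a2, Slc7a6, Slc6a6, Slc38a2, Slc1a1, Slc6a19 and Slc7a5. For each of these 19 genes the 4 arrays of 11-month-old mice had the same sign. A called change of at least 2-fold was seen for 5 members at 11 months (5.26% of all genes) and for Slc7a10 and Slc6a13 at 6 weeks (1.81% of all genes). With the scanner software's own ratio, other called members were also past 2-fold at 11 months, namely Slc1a1 at -1.43, Slc6a12 at 1.46, Slc7a6 at -1.43 and Slc6a19 at -2.95 on the log2 scale, with Slc6a8 at the limit.

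At 6 weeks, 7 transporter genes were higher in the knockout (Slc7a10, Slc6a13, Slc7a6, Slc43a1, Slc1a5, Slc3a2 and Slc6a16), Slc6a8 alone was lower, and 30 were not called. Over all genes tested 16.2% were called at this age, 9.18% higher and 7.01% lower. The members' median was -0.03, against -0.00 for all genes. Slc1a5, Slc43a1, Slc6a13, Slc6a16 and Slc7a10 were higher at both ages and Slc6a8 was lower at both, so 6 of 38 genes were called in the same direction at both ages, against 7.79% of all genes. Slc7a6 was the only member called in opposite directions, which held for 1.09% of all genes. Both comparisons rest on 1 model with a shared dye term, so they also share their estimate of the spread.

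**Figure D1:**
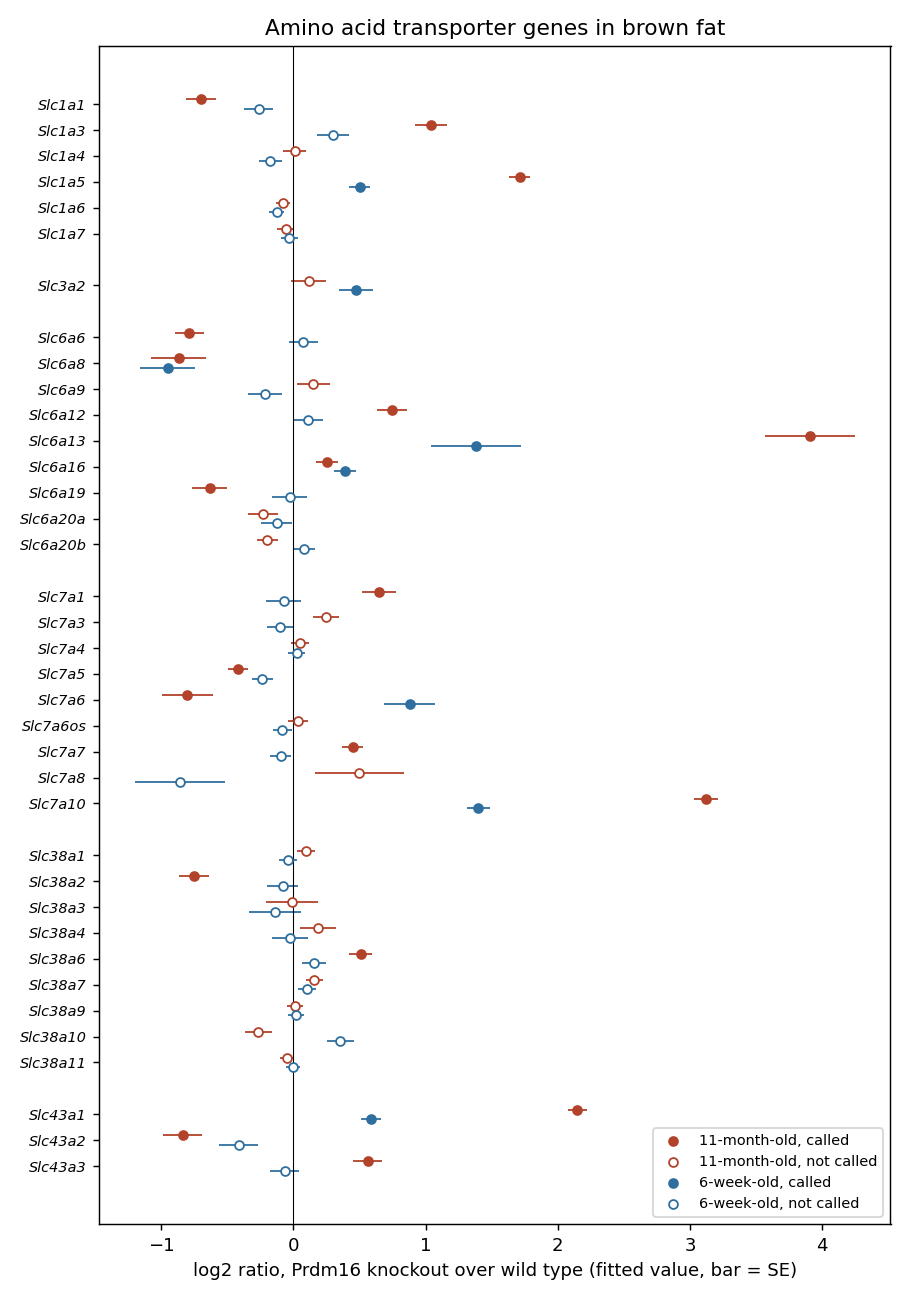
Fitted log2 ratio of Prdm16 knockout over wild type for the tested transporter genes reported here, ordered by family down the page, with 11-month-old values (red) above 6-week-old values (blue) and bars of 1 standard error. Filled points were called at an adjusted p below 0.05. Slc6a13, Slc7a10, Slc43a1 and Slc1a5 lie to the right at both ages and farther right at 11 months, whereas Slc7a6 lies on opposite sides of 0.

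The 4 genes with the largest positive ratios at 11 months were also higher at 6 weeks and had the larger ratio in the older mice. Slc7a10 encodes Asc-1, an exchanger of alanine, serine, cysteine and threonine. Across the arrays it had log2 ratios of 3.09, 3.22, 3.14 and 3.02 in the 11-month-old arrays and 1.67, 1.6, 1.1 and 1.23 in the 6-week-old arrays. Every array was above 1, and the lowest 11-month-old array lay above the highest 6-week-old array. The model gave 3.12 ± 0.09 (SE, 4 arrays), or 8.70-fold, at 11 months (limma adjusted p = 6.3e-06) and 1.40 ± 0.09, or 2.64-fold, at 6 weeks (adjusted p = 0.000575). The probe lies on chr7:35985868-35985927 of mouse build mm9, per the array's annotation.

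Slc6a13, a GABA and taurine carrier, had the largest fitted ratio among the members at 11 months. Its log2 ratios were 4.73, 4.35, 2.66 and 3.87 at 11 months and 2.36, 0.99, 1.22 and 0.96 at 6 weeks. The ages did not overlap, although 11-month-old array 3 and 6-week-old array 1 came near each other and the spread within each age was wider than for Slc7a10. Its fitted ratio came to 3.90 ± 0.34, or 15.0-fold, at 11 months (limma adjusted p = 0.000155) and 1.38 ± 0.34, or 2.61-fold, at 6 weeks (adjusted p = 0.0325). The call at 6 weeks was lost without 11-month-old array 2 or without 6-week-old array 1, 2 or 3, with fitted ratios of 0.92 to 1.52 and adjusted p = 0.0553 to 0.107. The call at 11 months held in all alternatives, at 3.64 to 4.48.

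Slc43a1 encodes LAT3, a facilitated carrier of branched-chain and other large neutral amino acids. Its log2 ratios were 2.16, 2.17, 2.04 and 2.22 at 11 months and 0.38, 0.37, 0.89 and 0.70 at 6 weeks. The 11-month-old arrays agreed within 0.2 of each other and all lay above the 6-week-old arrays. The fitted ratio was 2.15 ± 0.07, or 4.43-fold, at 11 months (limma adjusted p = 9.76e-06) and 0.59 ± 0.07, or 1.5-fold, at 6 weeks (adjusted p = 0.00353).

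Slc1a5 encodes ASCT2, an exchanger that brings glutamine into the cell. It had log2 ratios of 1.76, 2.0, 1.62 and 1.47 at 11 months and 0.21, 0.59, 0.51 and 0.69 at 6 weeks. Every array was positive and the ages did not overlap. With the dye accounted for, the ratio was 1.71 ± 0.08, or 3.28-fold, at 11 months (limma adjusted p = 1.89e-05) and 0.50 ± 0.08, or 1.41-fold, at 6 weeks (adjusted p = 0.00853). A second probe of the gene gave 1.55 and 0.37, called at both ages as well. Of the 6 general adipocyte markers, 5 were also higher in the knockout at each age. Adipoq was at 1.49 at 11 months and 0.40 at 6 weeks, and Fabp4 at 0.50 and 0.85. Pparg was called at neither age, at -0.31 and -0.25. Between ages, 2 of the 6 were called more positive at 11 months, Adipoq and Cfd, and 4 were not called. In bulk tissue, more cells of a type and more RNA per cell cannot be told apart.

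The promoters of these co-moving genes are shown because the 4 genes share the pattern of being higher at both ages and more so at 11 months. RefSeq's table of build GRCm38.p6 held a promoter for 3 of them, and for 41 of the 58 member genes. The 250 bases before the start are given 5′ to 3′ on the plus strand, for Slc43a1 at chr2:84840073-84840322, for Slc6a13 at chr6:121300038-121300287 (the first of 3 starts) and for Slc7a10 at chr7:35186135-35186384.
Slc43a1: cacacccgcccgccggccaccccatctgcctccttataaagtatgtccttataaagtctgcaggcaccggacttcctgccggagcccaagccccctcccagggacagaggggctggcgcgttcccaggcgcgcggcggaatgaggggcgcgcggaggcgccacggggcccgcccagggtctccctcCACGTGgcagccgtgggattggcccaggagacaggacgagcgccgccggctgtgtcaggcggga
Slc6a13: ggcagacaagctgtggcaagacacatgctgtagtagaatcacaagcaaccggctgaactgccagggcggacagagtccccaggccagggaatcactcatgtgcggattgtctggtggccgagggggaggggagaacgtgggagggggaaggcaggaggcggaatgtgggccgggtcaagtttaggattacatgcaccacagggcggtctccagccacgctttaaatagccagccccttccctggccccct
Slc7a10: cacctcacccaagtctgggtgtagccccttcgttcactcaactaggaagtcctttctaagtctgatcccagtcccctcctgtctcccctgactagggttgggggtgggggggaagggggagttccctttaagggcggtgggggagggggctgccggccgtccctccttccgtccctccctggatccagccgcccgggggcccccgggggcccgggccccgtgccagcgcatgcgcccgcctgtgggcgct
Capitals mark the E-box CACGTG, which begins 64 bases before the start of Slc43a1. The 3 sequences were rich in G and C, at 70.8% for Slc43a1, 60.8% for Slc6a13 and 69.6% for Slc7a10. Both strands were searched, from 250 bases before to 50 bases after each start, for 3 motifs that do not contain one another. The E-box was found in 8 of 61 promoters of member genes (13.1%), against 7.15% of all 32851 promoters. Among promoters of members called at either age it was found in 2 of 28 (7.14%). The core of the amino acid response element, TGATGNAA, was found in 4 of 61 (6.56%: Slc1a4, Slc7a7 and Slc7a11), against 3.97% of all. The DR1 element of nuclear receptors, AGGTCA repeated after 1 free base, was found in 0 of 61, against 0.0396% of all. These are matches of letters and say nothing about binding.

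Among the other carriers of glutamate and aspartate, Slc1a3 and Slc1a1 were called in opposite directions at 11 months. Slc1a3, or GLAST, had log2 ratios of 1.39, 1.73, 0.70 and 0.35 at 11 months and -0.03, -0.00, 0.93 and 0.30 at 6 weeks. All older arrays were positive, but the ages overlapped, and at both ages the arrays with the knockout in Cy5 read higher (shared dye coefficient 0.42, adjusted p = 0.0393). After the dye adjustment the ratio was 1.04 ± 0.12, or 2.06-fold, at 11 months (limma adjusted p = 0.000564) and 0.30 ± 0.12 at 6 weeks (adjusted p = 0.132). Slc1a1, or EAAC1, was lower at 11 months, at -0.70 ± 0.11 (limma adjusted p = 0.00252), and read -0.26 ± 0.11 at 6 weeks (adjusted p = 0.149). Slc1a6 and Slc1a7 were not called at either age, nor was the neutral exchanger Slc1a4, whose dye coefficient of 0.52 was the other one called among the members. Dye coefficients were called for 5.08% of all genes.

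Carriers of large neutral amino acids, which include leucine, did not move together. Slc43a2, or LAT4, is the nearest relative of Slc43a1 and was lower at 11 months, at -0.84 ± 0.15 (limma adjusted p = 0.00371), with -0.41 ± 0.15 at 6 weeks (adjusted p = 0.0951). Slc7a5, or LAT1, the exchanger that brings in leucine, had log2 ratios of -0.20, -0.62, -0.35 and -0.51 at 11 months and -0.30, -0.12, -0.27 and -0.24 at 6 weeks. All 8 arrays were negative and the ages overlapped. Fitted ratios were -0.42 ± 0.08 at 11 months (limma adjusted p = 0.00445) and -0.23 ± 0.08 at 6 weeks (adjusted p = 0.0753). A second probe of Slc7a5 was too dim to be kept. It was well above background in 2 of 16 channel measurements, both of them knockout channels at 11 months. In a fit of all measured probes it read 0.34 at 11 months (limma adjusted p = 0.0179), the opposite direction to the brighter probe. For so dim a probe this ratio is uncertain. Slc7a8, or LAT2, read 0.50 ± 0.34 at 11 months and -0.86 ± 0.34 at 6 weeks and was not called at either age. It was well above background in 1 of 4 wild-type channels at 11 months.

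Slc3a2 encodes 4F2hc, the heavy chain that carries Slc7a5, Slc7a6, Slc7a7, Slc7a8 and Slc7a10, and also Slc7a11, which was too dim to be tested, to the membrane. Its log2 ratios were 0.09, -0.06, 0.25 and 0.19 at 11 months and 0.36, -0.01, 0.94 and 0.61 at 6 weeks. The ages overlapped, and 1 array of each age lay just below 0. Fitted ratios were 0.12 ± 0.13 at 11 months (limma adjusted p = 0.534) and 0.47 ± 0.13 at 6 weeks (adjusted p = 0.0465). The call at 6 weeks was lost without 11-month-old array 1, 2 or 3 or 6-week-old array 1, 3 or 4, with adjusted p = 0.0509 to 0.158. The ratios of these 5 light chains ran from 3.12 to -0.80 at 11 months, beside a heavy chain that was not called.

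The 2 y+LAT exchangers, which trade cationic for neutral amino acids, differed from each other. Slc7a6, or y+LAT2, had log2 ratios of -0.94, -0.65, -0.38 and -1.24 at 11 months and 1.61, 0.96, 0.72 and 0.23 at 6 weeks. All older arrays were negative and all younger arrays positive. Fitted over 4 arrays an age, its ratio was -0.80 ± 0.19, or 1.75-fold lower, at 11 months (limma adjusted p = 0.0145) and 0.88 ± 0.19, or 1.84-fold higher, at 6 weeks (adjusted p = 0.0228). The call at 11 months was lost without 11-month-old array 1 (adjusted p = 0.0514), and the call at 6 weeks without 6-week-old array 1, 2 or 3 (adjusted p = 0.0682 to 0.0961). Slc7a6os on the opposite strand read 0.04 and -0.08 and was called at neither age. The 2 probes are annotated on opposite strands of chromosome 8.

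Slc7a7, or y+LAT1, is abundant in macrophages as well as in epithelia. Its log2 ratios were 0.45, 0.46, 0.58 and 0.30 at 11 months and -0.32, -0.05, -0.15 and 0.14 at 6 weeks. All older arrays lay above all younger ones. For y+LAT1 the fit gave 0.45 ± 0.08, or 1.36-fold, at 11 months (limma adjusted p = 0.00391) and -0.10 ± 0.08 at 6 weeks (adjusted p = 0.447). Of 7 macrophage markers tested, 6 were well above background in all 16 channel measurements and Cd68 in 13 of them. Of the 7, 5 were higher in the knockout at 11 months, and 1 was higher and 1 lower at 6 weeks. Their median log2 ratio was 0.13, 0.02, 0.82 and 0.62 in the 11-month-old arrays and 0.18, -0.03, 0.02 and -0.18 in the 6-week-old arrays. Their part in the ratio of Slc7a7 was not tested.

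Slc7a1, or CAT1, the main carrier of arginine, lysine and ornithine, had log2 ratios of 0.48, 0.94, 0.59 and 0.57 at 11 months and -0.08, -0.73, 0.33 and 0.20 at 6 weeks. The older arrays were all above the younger ones, whose signs were mixed. In the fit, CAT1 was at 0.65 ± 0.13, or 1.57-fold, at 11 months (limma adjusted p = 0.00716) and -0.07 ± 0.13 at 6 weeks (adjusted p = 0.740). Slc7a3, a relative of CAT1, was not called at either age, nor was Slc38a9, the lysosomal arginine sensor of the mTORC1 pathway.

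The 9 tested Slc38 genes had 1 call in each direction at 11 months and none at 6 weeks. Slc38a2, or SNAT2, is the carrier of alanine and other small neutral amino acids that cells induce when amino acids are short. Per array it read -1.05, -1.32, -0.58 and -0.05 at 11 months and -0.01, 0.17, -0.20 and -0.29 at 6 weeks. Arrays 1, 2 and 3 of the older mice lay below every younger array, and array 4 lay among them. The fitted ratio was -0.75 ± 0.11, or 1.68-fold lower, at 11 months (limma adjusted p = 0.00196) and -0.08 ± 0.11 at 6 weeks (adjusted p = 0.664). Array 4 was also the older array with the highest muscle median, 1.72. In 6-week-old arrays 3 and 4, whose muscle medians were 2.94 and -3.45, Slc38a2 read -0.20 and -0.29. The part of muscle in the ratio of Slc38a2 was not tested. Slc38a6, a member with less settled substrates, was higher at 11 months, at 0.51 ± 0.09 (limma adjusted p = 0.0035). The brighter probe of the orphan Slc38a11 read -0.05 at 11 months and was not called. A dimmer kept probe of Slc38a11 read 0.22 at that age (limma adjusted p = 0.0238 in a fit of all measured probes). It was well above background in 3 of 4 knockout and 0 of 4 wild-type channels, so this ratio is uncertain.

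Slc38a10, which carries glutamine and related amino acids, had log2 ratios of -0.42, -0.38, -0.11 and -0.16 at 11 months and 0.92, 0.76, -0.08 and -0.18 at 6 weeks. Within the younger mice the 2 positive arrays were those with the knockout in Cy3. Slc38a10 was fitted at -0.27 ± 0.10 at 11 months (limma adjusted p = 0.0829) and 0.36 ± 0.10 at 6 weeks (adjusted p = 0.0537), so neither age was called. With a dye coefficient for each age both were called (adjusted p = 0.007 at 11 months and 0.00567 at 6 weeks), as they were in separate models of the ages (adjusted p = 0.0238 at 11 months and 0.0231 at 6 weeks).

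**Figure D2:**
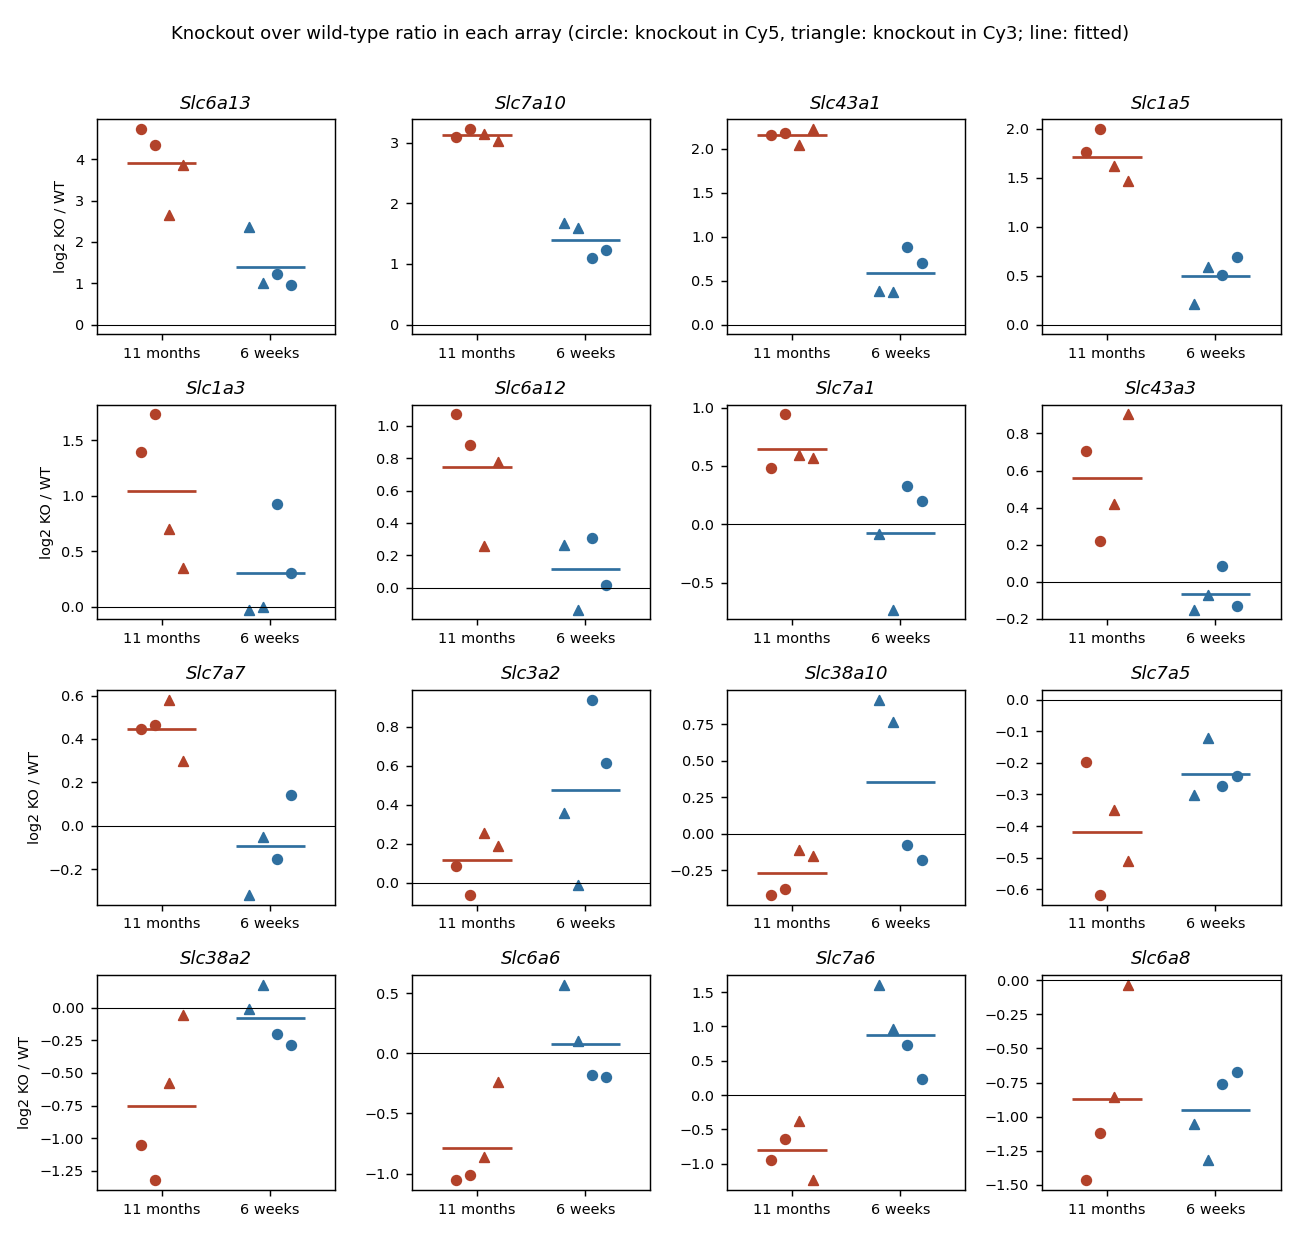
Log2 ratio of knockout over wild type in each array for 16 transporter genes, with 11-month-old arrays (red) left of 6-week-old arrays (blue) and a separate vertical scale in each panel. Points are values before the dye adjustment, circles have the knockout in Cy5 and triangles in Cy3, and lines are fitted ratios. The older arrays of Slc7a10 lie between 3.02 and 3.22, above the younger ones, and those of Slc7a6 lie below 0 where the younger ones lie above it.

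Slc6a8, the creatine transporter, was the member called lower at both ages. The arrays read log2 ratios of -1.47, -1.12, -0.86 and -0.03 at 11 months and -1.06, -1.32, -0.76 and -0.67 at 6 weeks. All 8 arrays were negative and the ages overlapped, with 11-month-old array 4 close to 0. Slc6a8 was fitted at -0.87 ± 0.21, or 1.83-fold lower, at 11 months (limma adjusted p = 0.0151) and -0.95 ± 0.21, or 1.94-fold lower, at 6 weeks (adjusted p = 0.0237). The call at 11 months was lost without 11-month-old array 1, 2 or 3, with adjusted p = 0.0547 to 0.0763, and the call at 6 weeks without 6-week-old array 1, 2 or 3, with adjusted p = 0.0539 to 0.108. Muscle expresses this gene strongly. With 11-month-old array 4 and 6-week-old arrays 2 and 4 left out together, which removes the muscle medians of 1.72, -2.86 and -3.45, Slc6a8 read -1.13 at 11 months (adjusted p = 0.00792) and -0.91 at 6 weeks (adjusted p = 0.0594). The 6-week-old array 3, whose muscle median was 2.94, read -0.76 and was kept in that fit beside array 1, whose median was 0.03. The part of muscle in the ratio of Slc6a8 was not tested.

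**Figure D3:**
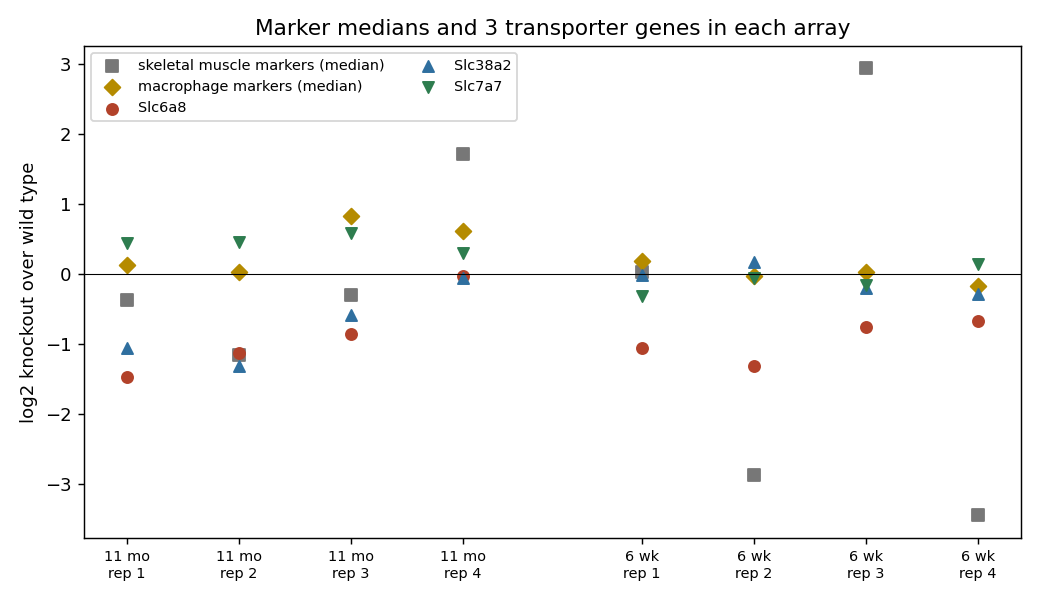
Median log2 ratio of knockout over wild type of the skeletal muscle and macrophage markers in each array, beside Slc6a8, Slc38a2 and Slc7a7, with 11-month-old arrays on the left and 6-week-old arrays on the right. The muscle medians run from 2.94 to -3.45 between the 6-week-old arrays, and the ratios of Slc6a8 in those arrays run from -0.67 to -1.32. The part of the marked cells in these ratios was not tested.

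Slc6a6, or TauT, the taurine transporter, had log2 ratios of -1.05, -1.01, -0.86 and -0.23 at 11 months and 0.57, 0.10, -0.18 and -0.20 at 6 weeks. All older arrays lay below all younger ones, by a small margin for array 4. Slc6a6 was fitted at -0.79 ± 0.11, or 1.73-fold lower, at 11 months (limma adjusted p = 0.00126) and 0.07 ± 0.11 at 6 weeks (adjusted p = 0.685). Slc6a12, or BGT1, a betaine and GABA carrier, had log2 ratios of 1.07, 0.88, 0.26 and 0.78 at 11 months and 0.27, -0.14, 0.31 and 0.02 at 6 weeks. The ages overlapped only through 11-month-old array 3. Slc6a12 was fitted at 0.75 ± 0.11, or 1.68-fold, at 11 months (limma adjusted p = 0.00197) and 0.11 ± 0.11 at 6 weeks (adjusted p = 0.538).

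The orphan Slc6a16 was higher by small amounts, at 0.25 ± 0.08 at 11 months (limma adjusted p = 0.0484) and 0.39 ± 0.08 at 6 weeks (adjusted p = 0.0208). Its call at 11 months was lost when any one array other than 11-month-old array 3 was left out, with adjusted p = 0.0533 to 0.212. At 6 weeks it was lost without 6-week-old array 1 or 2 (adjusted p = 0.0849 to 0.0991). Slc6a19, or B0AT1, a neutral amino acid carrier of kidney and gut, was well above background in all 4 wild-type but in 0 of 4 knockout channels at 11 months. Its fitted ratio was -0.63 ± 0.13, or 1.55-fold lower, at 11 months (limma adjusted p = 0.00769). With 1 array left out, the ratio ran from -0.75 to -0.43. The knockout signal was not well above background, so the size of this ratio is uncertain. It was -2.95 with the scanner software's ratio, and the authors' deposited table also gave a larger drop. At 6 weeks Slc6a19 was detected in all 8 channels and read -0.03. The carriers of glycine, proline and imino acids that could be tested, Slc6a9, Slc6a20a and Slc6a20b, were called at neither age. Slc6a20a and Slc6a20b are close relatives, so their probes may share signal.

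The response to the knockout was then compared between ages, as the 11-month-old ratio minus the 6-week-old ratio. It was more positive at 11 months for 9 transporter genes and more negative for 4, with 25 not called. Over all genes 18.2% were called, 8.46% more positive and 9.71% more negative. Each age was run as its own batch on its own slide, so age, batch and slide cannot be told apart in this comparison. The more positive genes were Slc6a13 by 2.52 ± 0.48 (limma adjusted p = 0.0126), Slc7a10 by 1.72 ± 0.12 (adjusted p = 0.000802), Slc43a1 by 1.56 ± 0.10 (adjusted p = 0.000802) and Slc1a5 by 1.21 ± 0.11 (adjusted p = 0.00149). These were followed by Slc1a3, Slc7a1, Slc6a12, Slc43a3 and Slc7a7, with differences of 0.74 down to 0.54. Slc43a3, the nucleobase carrier, had log2 ratios of 0.70, 0.22, 0.42 and 0.90 at 11 months and -0.15, -0.07, 0.09 and -0.13 at 6 weeks. Its older arrays all lay above the younger ones, and it was called at 11 months only, at 0.56 ± 0.11 (limma adjusted p = 0.00574).

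The more negative genes were Slc7a6 by -1.68 ± 0.27 (limma adjusted p = 0.00701), Slc6a6 by -0.86 ± 0.16 (adjusted p = 0.0103), Slc38a2 by -0.67 ± 0.16 (adjusted p = 0.0286) and Slc38a10 by -0.62 ± 0.15 (adjusted p = 0.0258). The per-array ratios of the ages did not overlap for 9 members: Slc1a5, Slc43a1, Slc43a3, Slc6a13, Slc6a6, Slc7a1, Slc7a6, Slc7a7 and Slc7a10. The same held for 19.5% of all genes. Slc6a8 differed between the ages by 0.08 ± 0.30 (limma adjusted p = 0.873), and Slc3a2 by -0.36 ± 0.19 (adjusted p = 0.218), so the call of Slc3a2 at 6 weeks alone is not a shown difference between ages. The call of Slc1a3 was lost without 11-month-old array 1, 2 or 3 or 6-week-old array 2 (adjusted p = 0.0533 to 0.0704), and that of Slc38a10 without 11-month-old array 3 or 4 or 6-week-old array 1 or 2 (adjusted p = 0.0552 to 0.0764). Slc38a2 lost it without 11-month-old array 1, 2 or 3 or 6-week-old array 2, 3 or 4 (adjusted p = 0.0672 to 0.0772), and Slc43a3 without 11-month-old array 1 or 6-week-old array 1, 2 or 4 (adjusted p = 0.0723 to 0.0806). For Slc6a12 this was so without 11-month-old array 1, 2 or 4 or 6-week-old array 2, 3 or 4 (adjusted p = 0.0673 to 0.0943), and for Slc7a1 without 11-month-old array 2, 3 or 4 or 6-week-old array 2 or 4 (adjusted p = 0.0509 to 0.0965). The other 7 differences stayed called when any 1 array was left out.

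**Figure D4:**
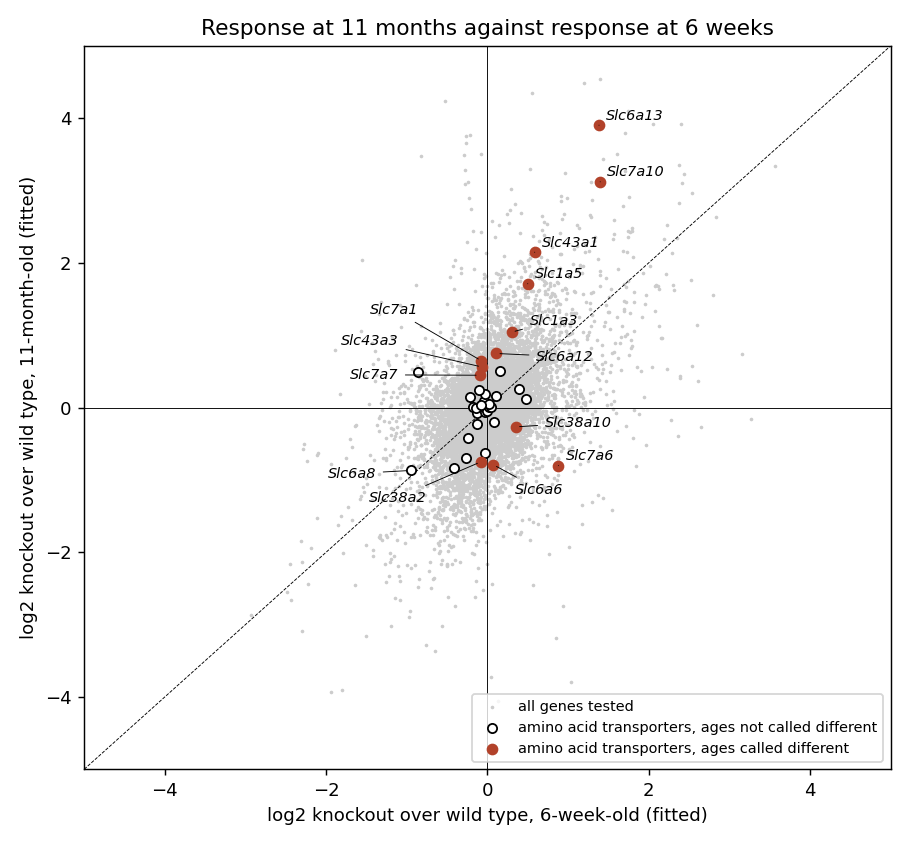
Fitted log2 ratio of knockout over wild type at 11 months (vertical) against that at 6 weeks (horizontal) for all 21742 genes (grey) and the 38 tested transporter genes, filled where the ages were called different. The dashed line marks equal ratios, and Slc6a13, Slc7a10, Slc43a1 and Slc1a5 lie above it while Slc7a6 lies at the lower right.

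By family, the Slc43 genes were all called at 11 months, Slc43a1 and Slc43a3 higher and Slc43a2 lower. Of 10 tested Slc6 genes 3 were higher and 3 lower at 11 months, and of 9 tested Slc7 genes 3 were higher and 2 lower. Of 6 tested Slc1 genes 2 were higher and 1 lower. By substrate, the 10 tested carriers of neutral amino acids split evenly at 11 months, with Slc7a10 and Slc1a5 higher and Slc38a2 and Slc6a19 lower. Of the 5 tested carriers of neurotransmitters or osmolytes, Slc6a13 and Slc6a12 were higher and Slc6a6 and Slc6a8 lower. Of the 5 tested cationic carriers, Slc7a1 and Slc7a7 were higher and Slc7a6 lower. No family or substrate group with more than 2 tested genes had all its members called in 1 direction at either age.

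The remaining 20 genes were too dim to be tested, and 16 of them were well above background in 0 of 16 channel measurements. These 16 include Slc7a11, the cystine exchanger xCT, with Slc7a9 and its heavy chain Slc3a1, the glutamate carrier Slc1a2, and the noradrenaline and dopamine transporters Slc6a2 and Slc6a3. They also include the GABA carrier Slc6a11, the neutral amino acid carriers Slc38a5 and Slc38a8, and Slc6a14, Slc6a15, Slc6a17, Slc6a18, Slc7a12, Slc7a13 and Slc7a14. The other 4 reached that level in few channels: Slc6a4, the serotonin transporter, in 3, Slc7a15 in 2, and Slc7a2 and Slc6a7 in 1 each. By family, 9 of 19 Slc6 genes and 7 of 16 Slc7 genes were dim, against 2 of 11 Slc38 genes, 1 of 7 Slc1 genes, 1 of 2 Slc3 genes and 0 of 3 Slc43 genes. A dim probe gives no more than a bound, and it does not show that the gene is silent. Of the 38 tested genes, 31 were well above background in all 16 channel measurements.

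**Figure D5:**
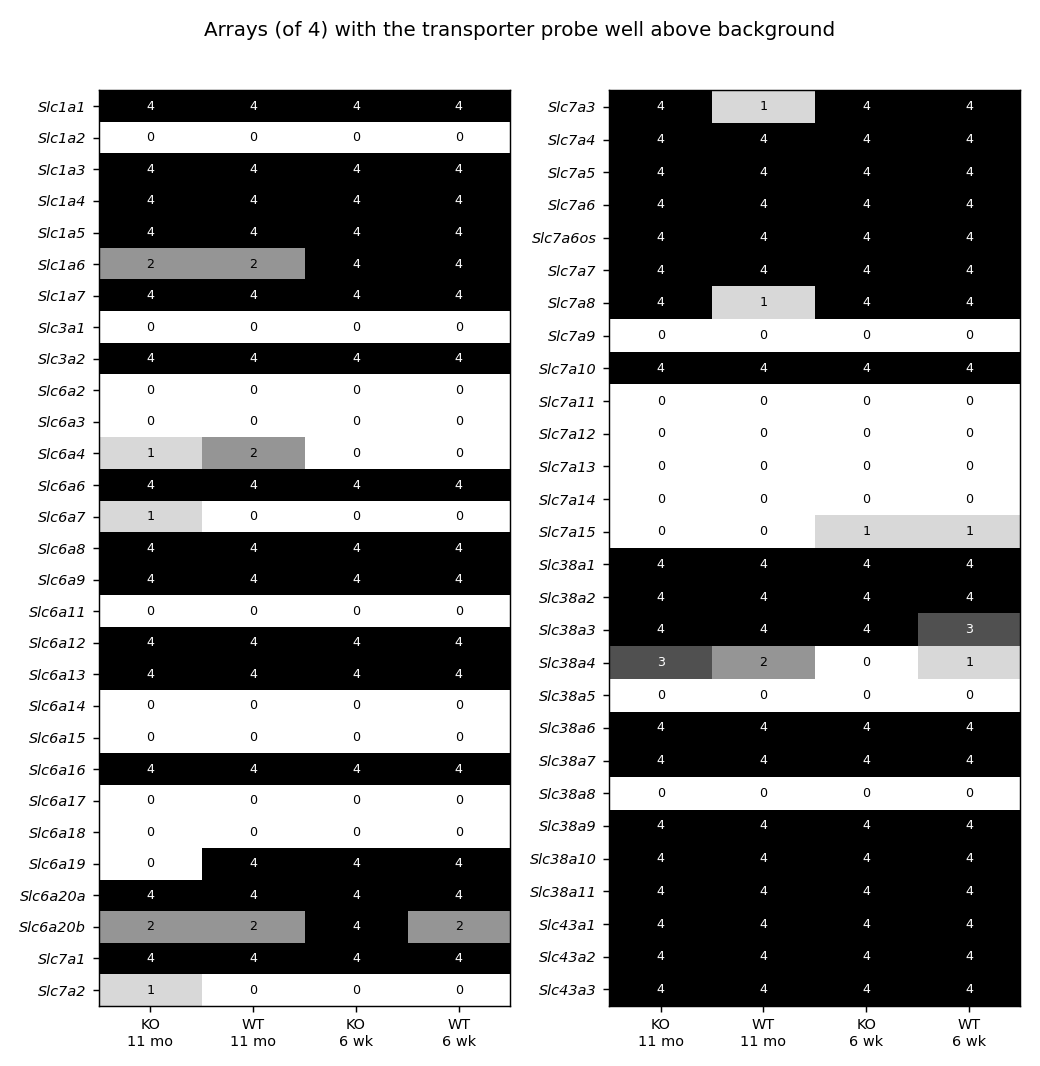
Number of arrays, of 4, in which a probe of each transporter gene reported here was well above background, in knockout and wild-type channels at 11 months and at 6 weeks. The probe shown for a gene is the one most often well above background over all channels. Most genes stand at 4 or at 0 throughout, and Slc6a19 stands at 0 only in the knockout at 11 months.

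For the lists that follow, the shares over all genes were 17.9% higher and 16.8% lower at 11 months, and 9.18% higher and 7.01% lower at 6 weeks. Other amino acid and peptide transporters, outside the 6 families, had 2 of 21 genes higher and 2 lower at 11 months. Slc36a2, a proton-coupled carrier of glycine and proline, was lower at -1.19 (limma adjusted p = 0.00212), and Slc15a4, a lysosomal histidine and peptide carrier, was higher at 0.48 (adjusted p = 0.00972). Slc25a44, the mitochondrial carrier of branched-chain amino acids in brown fat, was lower at -0.32 (adjusted p = 0.0147). At 6 weeks 1 gene of this list was higher and 2 were lower, among them the peptide carrier Slc15a2 at -1.09 (adjusted p = 0.0197).

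Genes of amino acid use were called in both directions. In the amino acid and integrated stress response list, 8 of 29 genes were higher and 7 lower at 11 months, and 4 were higher and 2 lower at 6 weeks. The serine synthesis genes Psat1 and Phgdh read 3.91 and 3.09 at 11 months (limma adjusted p = 1.01e-05 and 4e-05), against 2.06 (adjusted p = 0.000754) and -0.27 (adjusted p = 0.347) at 6 weeks. Next in size at 11 months were Stc2, higher at 1.25 (adjusted p = 0.000653), and Trib3, lower at -1.1 (adjusted p = 0.0163). Among 20 genes of glutamine, glutamate, aspartate and arginine enzymes, 7 were higher and 3 lower at 11 months, and 2 were higher and 6 lower at 6 weeks. Gpt2, the mitochondrial alanine aminotransferase, was at 2.69 (adjusted p = 1.44e-05) at 11 months and 0.42 (adjusted p = 0.0469) at 6 weeks.

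In the list of amino acid sensing by mTORC1, 4 of 29 genes were higher and 13 lower at 11 months, and 2 were higher and 5 lower at 6 weeks. Flcn, the folliculin gene, was at -1.38 at 11 months (limma adjusted p = 4.93e-05) and -0.60 at 6 weeks (adjusted p = 0.00615). Mtor was at -1.11 at 11 months (limma adjusted p = 0.00121) but 0.57 at 6 weeks (adjusted p = 0.0425). Sesn3 was at 0.57 at 11 months (limma adjusted p = 0.00507) but -0.43 at 6 weeks (adjusted p = 0.0334). The median of this list at 11 months was -0.15. Of 9 creatine and taurine genes, 2 were higher and 1 lower at 11 months, with Gamt, which makes creatine, at 1.93 (adjusted p = 0.000139). At 6 weeks only the creatine kinase gene Ckb was called, at -1.22 (adjusted p = 0.0139). Of 10 genes of glutathione synthesis and cystine use, 4 were higher and 2 lower at 11 months, and 3 were higher and 3 lower at 6 weeks.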

How the data were processed

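Foreground and background intensity of each spot and channel were read by Agilent Feature Extraction, in another version for each age, per the file headers. The deposited log10 ratio of Cy5 over Cy3 was background-subtracted and dye-normalized by that software, per the file headers. The authors' deposited table holds log2 ratios, for which the submitters' processing notes name limma, with its settings not given in the sources used here. Set against the scanner values, it was read as knockout over wild type. Intensities were corrected with normexp (offset 50) and loess in limma 3.58.1 (R 4.3.3), with 131 to 247 excluded spots per array. Probes were kept when well above background in at least 4 of 16 channel measurements, with values on 3 or more arrays per age, and the brightest kept probe stood for a gene. This left 26853 probes of 21742 genes, 14810 of them named through RefSeq. One model fitted both ages and 1 dye term, with 5 residual degrees of freedom. Ratios per array are given before the dye adjustment. Nothing states that samples with the same number belong together, and their deviations correlated at -0.20 to -0.06 over genes.

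In simulated data for the 11-month comparison over 21742 genes, 96% of 100 genes changed by 1 on the log2 scale and 99% of 100 changed by 2 were recovered, with 11 false calls. Noise was drawn independently for each gene and array, and all other genes were left unchanged. Shifts shared by many genes, such as those of the muscle markers, were not simulated, so these figures need not hold for the real arrays. The alternatives were the background offset, the scanner software's ratio, the authors' table, median centring, the filter, the probe rule, the dye term, each age alone, the replicate block and arrays left out. Per-array values are given for members called at either age with a change of at least 1 on the log2 scale, for members whose ages were called different, and for Slc7a10, Slc3a2, Slc7a5, Slc1a5, Slc38a2 and Slc6a8. One tested member, counted but not named, is not reported here. For other lists, up to 4 called genes with the largest change are named. The members and lists were chosen with earlier results of these data known. The number of arrays limits the precision.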

Additional observations from a re-analysis of the deposited data

Results flagged for a closer look

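The response to the knockout differed between the ages for 13 transporter genes, by limma's test of the 11-month-old ratio minus the 6-week-old ratio on the log2 scale. It was more positive at 11 months for Slc6a13 (2.52), Slc7a10 (1.72), Slc43a1 (1.56), Slc1a5 (1.21), Slc1a3 (0.74), Slc7a1 (0.72), Slc6a12 (0.64), Slc43a3 (0.63) and Slc7a7 (0.54). It was more negative for Slc7a6 (-1.68), Slc6a6 (-0.86), Slc38a2 (-0.67) and Slc38a10 (-0.62). No array stood apart from the other 3 of its age by Dixon's criterion in any of the 16 genes whose per-array values are given.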

How the results depend on the processing

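No call of a transporter gene changed direction under any alternative run. At 11 months 13 of the 19 called genes stayed called in all alternatives, at 6 weeks 2 of 8 (Slc7a10 and Slc43a1), and between ages 3 of 13 (Slc7a10, Slc43a1 and Slc7a6). The causes of the changes below were not tested. Median centring in place of loess lowered the counts, with 4 genes higher and 0 lower at 6 weeks (main 7 and 1), 10 higher and 4 lower at 11 months (main 11 and 8), and 3 more positive and 1 more negative between ages (main 9 and 4). The share called higher was then 71.4% at 11 months, against 57.9%, and 100% at 6 weeks, against 87.5%. The genes it left uncalled were Slc6a6, Slc6a8, Slc6a16, Slc7a5 and Slc7a6 at 11 months and Slc1a5, Slc6a8, Slc6a13 and Slc6a16 at 6 weeks. Without 11-month-old array 4 and 6-week-old arrays 2 and 4, the counts were 3 and 0 at 6 weeks and 3 and 2 between ages. The scanner software's ratio gave 12 higher and 12 lower genes at 11 months (50% higher), 2 lower genes at 6 weeks, where 75% of the called genes were higher, and 7 more negative genes between ages, 58.8% of the called genes then being more positive, against 69.2%. A dye term for each age, or each age alone, gave 2 lower genes at 6 weeks. With the scanner software's ratio the difference between ages was 1.29 for Slc6a12 and -2.43 for Slc7a6, and with the authors' deposited table Slc6a19 read -1.38 at 11 months. The authors' deposited table gave 7 more negative genes between ages, and no dye term gave 2.

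Leaving out 1 array at a time gave 3 to 8 higher and 0 to 2 lower genes at 6 weeks, 10 to 11 higher and 6 to 8 lower at 11 months, and 5 to 8 more positive and 2 to 4 more negative between ages. With the replicate block, 8 genes were more positive and 5 more negative between ages. Slc43a3 (adjusted p = 0.0533) and Slc7a1 (adjusted p = 0.0577) were then not called and Slc6a19 was (adjusted p = 0.036), and no 6-week-old sample's deviations correlated best with those of its own number. With deviations within each dye orientation, samples 1 and 2 did so (0.09), and samples 3 and 4 had -0.06 with their own number. Each orientation has 2 arrays an age, whose deviations mirror each other, so each pair of samples gives 1 value. With the dye effect left in, same-numbered arrays differ in dye orientation. Neither set of correlations can therefore decide whether the numbers are paired. Each age has 4 arrays, and small changes of dim genes are beyond this design.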
